A study of Homo sapiens with 18 samples.

Results

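SKOV3 cells treated with daphnetin at 20 mg/L were compared with SKOV3 cells given DMSO, the solvent, by RNA sequencing. The libraries were chosen by their labels, 3 treated and 3 control, which is 6 of the 18 libraries of the series. All genes of the deposited count table entered the comparison, 56303 in all, of which 21936 had enough reads to be tested. SKOV3 is an established human ovarian cancer line that carries extra copies of ERBB2, and daphnetin is a plant dihydroxycoumarin with neighbouring hydroxyl groups. The series asked which transcripts and pathways accompany the death and the reduced movement of ovarian cancer cells under daphnetin, and its title names ferroptosis and the quinone reductase NQO1. It also holds SKOV3 at 40 mg/L and a further line, A2780, with DMSO, 20 mg/L and 40 mg/L, each group with 3 libraries. The cells were labelled WT, and the groups differed by the agent and its dose, per the labels, which name DMEM and RPMI-1640 as media without tying either to a line. Each line stands for 1 tumour. The duration of treatment is not given in the sources used here. The labels number the replicates and do not tie them to separate cultures. The p-values therefore speak only of how far these libraries vary, and that variation may be technical.

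Several stress programmes are known to answer small reactive molecules. NRF2, encoded by NFE2L2, is held at a low level by the adaptor KEAP1, and when reactive compounds modify KEAP1 it accumulates and switches on genes of glutathione synthesis, quinone reduction, NADPH supply and iron storage. The aryl hydrocarbon receptor (AHR) is a transcription factor activated by flat aromatic ligands, and its best known targets encode the drug-metabolising enzymes CYP1A1, CYP1B1, ALDH3A1 and the UGT1A family. Ferroptosis is an iron-dependent death by lipid peroxidation, which the lipid peroxidase GPX4, cystine import through SLC7A11 and the quinone reductase AIFM2 oppose.

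The 6 libraries held 35105152 to 43633963 counts, of which 4.36% to 5.23% fell on mitochondrial genes. Counts of replicate pairs in these groups gave 4.69 to 6.29 as chi-square over its degrees of freedom, above the value for counting error of independent reads. Counting both mates of a pair and reading a molecule repeatedly also raise this value. It therefore cannot by itself decide whether any pair stems from a single library. In CPM, the count of a gene relative to the scaled total of its library, ERBB2 averaged 2757 CPM in SKOV3 with DMSO and 64.6 CPM in A2780 with DMSO, with all 18 libraries scaled together. Among 12 immune cell markers 9 had too few reads to be tested, the T cell gene CD3D and the B cell gene MS4A1 were at 0 in all 6 libraries, and the leukocyte gene PTPRC did not exceed 0.218 CPM. The summed level of the 12 was 70.4 to 77.9 CPM with DMSO and 84.1 to 89.8 CPM at 20 mg/L, almost all of it from CD68, a lysosomal protein that many cell types express. CD68 rose by 0.21 on the log2 scale, a call that was lost when DMSO replicate 1 or 2 or treated replicate 2 or 3 was left out (adjusted p from 0.0542 to 0.15), and 81.7% of its exonic length lies in another gene on the same strand. On the first principal component of the 9 SKOV3 libraries, with 54% of the variance, the libraries at 20 mg/L (-22.7 to -20.8) lay near those with DMSO (-37.2 to -34.9) and far from those at 40 mg/L (54.5 to 62.9). On the second, which held 10.3% of the variance, the libraries at 20 mg/L lay alone at the low end, at -31.5 to -18.7, against 15 to 25.8 with DMSO and 2.3 to 5.6 at 40 mg/L.

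Many genes moved a little and few moved much. At an adjusted p under 0.05 by the edgeR quasi-likelihood test, with p-values adjusted by Benjamini-Hochberg, which is the meaning of "called" from here on, 2217 of the 21936 genes differed (10.1%). Of these, 1132 were higher at 20 mg/L (5.16% of the genes tested) and 1085 were lower (4.95%). The median size of a called change was 1.26-fold. A change of under 1.5-fold was found for 1776 of the 2217 called genes, which is 8.1% of the 21936 genes tested. One of 2-fold or more was found for 150 (0.684% of the genes tested), 99 higher (0.451%) and 51 lower (0.232%). The median log2 fold change of all genes tested was 0.00, with 5th and 95th percentiles of -0.49 and 0.52. Without DMSO replicate 3 the number called was 1443, with 710 higher. In 2161 genes (9.85%) the gene was called and no library of one group overlapped the other group. Lower calls made up a larger share of abundant transcripts. Of 1933 genes averaging 100 CPM or more, 16.6% were called lower and 8.33% higher, whereas from 1 to 10 CPM 2.81% were lower and 4.12% higher. The counts of called list members given below are to be read beside the shares over all genes, 5.16% higher and 4.95% lower.

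**Figure D1:**
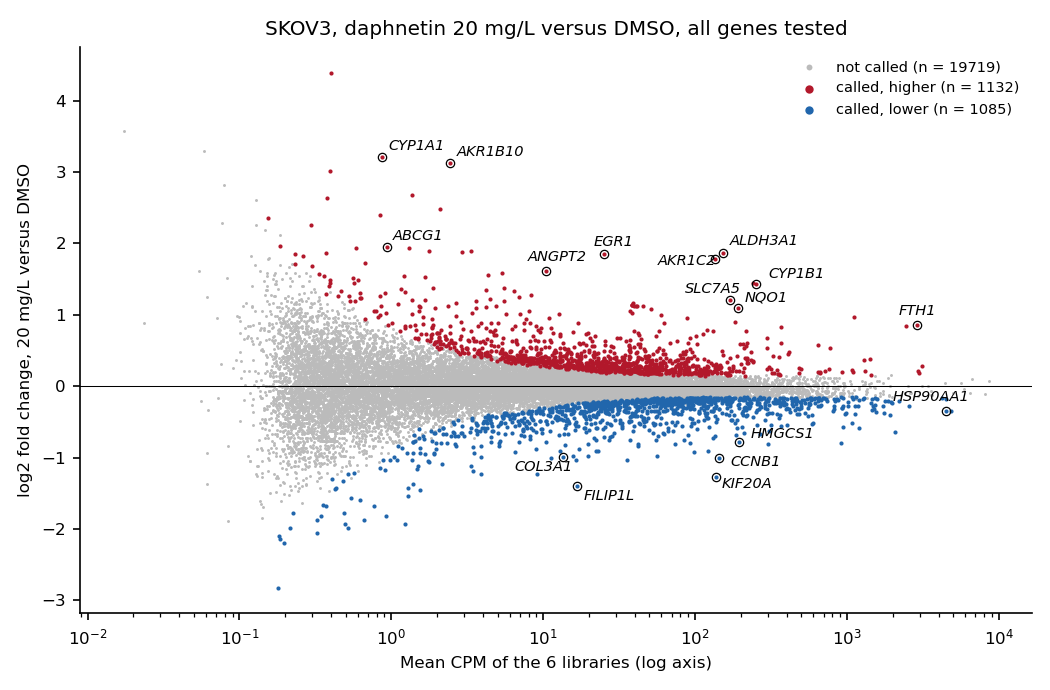
Mean level in the 6 libraries (CPM, log axis) against log2 fold change of 20 mg/L over DMSO for each of the 21936 genes tested, with genes called higher in red (n = 1132), called lower in blue (n = 1085) and not called in grey. Circled genes are described in the text; drug-metabolising and NRF2 target genes such as ALDH3A1 and NQO1 stand high among abundant genes, and mitotic genes such as KIF20A and CCNB1 stand low.

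Among the 10 well expressed genes that rose most, 4 encode enzymes that handle foreign compounds (ALDH3A1, AKR1C2, AKR1C1 and CYP1B1). The other 6 were EGR1, ANGPT2, ENPP2, SLC47A2, MEGF6 and SLC37A2. ALDH3A1 (chr17:19737984-19748943 of build GRCh38), an aldehyde dehydrogenase and classical AHR target, was at 66.3, 59.6 and 72.3 CPM with DMSO and at 214, 263 and 242 CPM at 20 mg/L. Every treated library lay above every control library, a 3.63-fold rise (log2 1.86, SE 0.07, adjusted p = 2.63e-16, edgeR). CYP1B1, a cytochrome P450 that oxidises polycyclic aromatics and oestrogens, went from 130, 139 and 140 CPM to 295, 366 and 445 CPM (log2 1.43, SE 0.14, adjusted p = 0.000425). CYP1A1, the P450 most often used as a read-out of AHR activity, was scarce, with 0.28, 0.167 and 0.0481 CPM under DMSO and 0.799, 1.32 and 2.61 CPM at 20 mg/L. Its groups did not overlap either and its log2 fold change was 3.21 (SE 0.44, adjusted p = 1.96e-06). AHRR, which encodes a repressor of the receptor, rose by 0.66 on the log2 scale (adjusted p = 0.00153), from a mean of 3.3 to 5.2 CPM. TIPARP, an ADP-ribosyltransferase that also feeds back on the receptor, went from 6.07 to 8.02 CPM, with overlapping libraries. Its call (adjusted p = 0.0372) was lost when any DMSO library or treated replicate 2 or 3 was left out, with adjusted p from 0.0539 to 0.317. The receptor gene AHR itself was at a mean of 17.7 CPM with DMSO and 20.3 CPM at 20 mg/L and was not called (adjusted p = 0.0756). The list for this pathway held 10 targets beside AHR and its partner ARNT, with NQO1 and SLC7A5 among them. Of the 9 targets tested 8 rose and none fell, with a median log2 fold change of 1.09 against 0.00 for all genes, and AHR, ARNT and the target LRAT were not called.

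The UGT1A locus on chromosome 2 encodes glucuronosyltransferases, which attach glucuronic acid to drugs, bilirubin and phenols, from alternative first exons joined to shared last exons. All 9 UGT1A genes tested were called higher, with log2 fold changes from 1.08 to 1.16, from means of 23.7 to 33 CPM with DMSO to 52.5 to 69.5 CPM at 20 mg/L. Their exons overlap on the same strand, by 49.9% of the exonic length in UGT1A1, and their values are nearly equal, so they are read as 1 locus and not as 9 independent genes. UGT1A1, for example, had 29.7, 27.5 and 28.5 CPM and then 59, 66.5 and 62.3 CPM.

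Aldo-keto reductases reduce aldehydes, ketones and steroids, and several are strongly NRF2-dependent in human cells. All 5 on the NRF2 list rose, by log2 fold changes from 0.28 in AKR1B1 and 0.90 in AKR1C3 to 3.13 in AKR1B10. AKR1C2 was at 61.7, 60.6 and 61.6 CPM with DMSO and at 198, 200 and 232 CPM at 20 mg/L (log2 1.78, SE 0.06, adjusted p = 1.13e-20). AKR1C1 went from 122, 134 and 133 CPM to 345, 350 and 364 CPM (log2 1.45, SE 0.06, adjusted p = 4.05e-19). AKR1B10, a reductase of retinal and other carbonyls, had 0.326, 0.613 and 0.577 CPM with DMSO and 4.09, 4.68 and 4.4 CPM after treatment (log2 3.13, SE 0.20, adjusted p = 5.51e-14). In AKR1C1, AKR1C2 and AKR1B10 the groups did not overlap, although AKR1C1 and AKR1C2 are close paralogs whose reads may be split between them. Other genes at the top of the ranking were SLC47A2, a transporter that extrudes organic cations (log2 1.56, adjusted p = 8.27e-11), and SLC37A2, a sugar-phosphate exchanger (log2 1.35, adjusted p = 2.08e-08). ENPP2, the secreted enzyme autotaxin that makes lysophosphatidic acid, rose from 2.67 to 8.04 CPM (log2 1.59, adjusted p = 6.79e-11), and MEGF6, which encodes a protein with EGF-like repeats, from 3.08 to 8.01 CPM (log2 1.38, adjusted p = 2.99e-09).

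NRF2 target genes rose almost as a whole. Of 37 listed targets 36 were in the table and tested. Of these 32 rose and none fell, with a median log2 fold change of 0.63, where 5.16% of all genes tested rose. NQO1 (chr16:69706996-69726951), which reduces quinones to hydroquinones, was at 122, 124 and 123 CPM with DMSO and 255, 263 and 268 CPM at 20 mg/L. The treated libraries held 2.12 times the control level with almost no spread inside either group (log2 1.09, SE 0.05, adjusted p = 2.63e-16), and 17.7% of the exonic length of NQO1 is overlapped by CTD-2033A16.1 on the opposite strand. Haem oxygenase, HMOX1, which breaks haem down into iron, carbon monoxide and biliverdin, was low at 3.36, 3.68 and 2.16 CPM and rose to 6.34, 6.1 and 7.72 CPM (log2 1.13, SE 0.13, adjusted p = 1.24e-07). The stress-induced growth inhibitor gene OSGIN1 went from 1.23 to 2.65 CPM (log2 1.09, adjusted p = 5.11e-05), TRIM16L, a tripartite-motif gene, from 4.11 to 9.77 CPM (log2 1.25, adjusted p = 9.34e-11) and EPHX1, microsomal epoxide hydrolase, from 59.8 to 116 CPM (log2 0.96, adjusted p = 2.51e-15).

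GCLC and GCLM are the catalytic and modifier subunits of the enzyme that starts glutathione synthesis. GCLM was at 6.41, 7.08 and 7.83 CPM with DMSO and 12.2, 11.1 and 12.7 CPM at 20 mg/L (log2 0.76, SE 0.09, adjusted p = 1.26e-07), and GCLC went from a mean of 31.5 to 52.5 CPM (log2 0.74, adjusted p = 1.88e-11). TXNRD1, the cytosolic thioredoxin reductase, rose from 230 to 365 CPM (log2 0.67, adjusted p = 2.2e-10), and SRXN1, which repairs overoxidised peroxiredoxins, from 24.6 to 39.3 CPM (log2 0.67, adjusted p = 5.05e-10), although 85% of the exonic length of SRXN1 is shared with another gene on its strand. Of 29 glutathione and thioredoxin genes 10 rose and none fell (median log2 0.13), and of 18 genes of NADPH supply 8 rose and 1 fell (median 0.12). TKT, transketolase of the pentose phosphate pathway, rose by 0.57 on the log2 scale (adjusted p = 1.36e-09). Among regulators, NFE2L2 rose by 0.38 (adjusted p = 9.59e-06) and MAFF, a small MAF protein that pairs with NRF2, by 0.51 (adjusted p = 1.49e-07). KEAP1 had a log2 fold change of 0.21 (adjusted p = 0.0389), a call that was lost with DESeq2 (0.0502), without the low-count filter (0.0542) and in 5 of the 6 fits that left out 1 library of these groups (up to 0.278), all but the one without DMSO replicate 1.

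Genes named for ferroptosis did not move as a block. Of 26 suppressors tested 8 rose and 3 fell (median log2 0.20), and of 25 drivers 3 rose and 3 fell (median -0.03). Over all genes tested 5.16% rose and 4.95% fell. The lists share members with the NRF2 targets above, so these counts are not a separate result. FTL, FTH1, SLC7A11, GCLM, GCLC and TXNRD1 among the suppressors that rose, and HMOX1 among the drivers, are counted in both. SLC7A11, the cystine transporter subunit, rose from 101, 91.1 and 97.1 CPM to 161, 145 and 189 CPM (log2 0.77, SE 0.08, adjusted p = 3.58e-07), and its partner SLC3A2 from a mean of 265 to 472 CPM (log2 0.83, adjusted p = 1.55e-12). GPX4 had 276, 283 and 286 CPM with DMSO and 252, 275 and 261 CPM at 20 mg/L, a log2 difference of -0.10 that was not called (adjusted p = 0.27). AIFM2 was at 9.81, 10.1 and 10.6 CPM and at 11.6, 12.5 and 12.1 CPM (log2 0.24, SE 0.09) and was not called either (adjusted p = 0.0769). The transferrin receptor TFRC, which takes up iron, overlapped between the groups at 96.1, 84.4 and 91.5 CPM against 91.4, 91.2 and 96.8 CPM (log2 0.04, adjusted p = 0.756). Of 22 iron-handling genes 7 rose and none fell. The ferritin subunits, which store iron, were among them. FTL rose from 37.9, 43.2 and 37.2 CPM to 74.3, 84 and 78.6 CPM (log2 1.00, adjusted p = 4.59e-14) and FTH1 from 2003, 2084 and 2083 CPM to 3385, 4031 and 3779 CPM (log2 0.86, adjusted p = 1.27e-12). Both have many processed pseudogenes, and 62.4% of the exonic length of FTH1 lies under BEST1, a gene on the opposite strand that went from 1751 to 3147 CPM (log2 0.85), so their reads cannot be told apart here.

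Transcripts of the integrated stress response were raised mildly. In this programme a kinase phosphorylates the initiation factor eIF2, general translation slows, and the transcription factor ATF4 turns on amino acid transport and synthesis. Of 40 genes tested 27 rose, none fell and 13 were not called, with a median log2 fold change of 0.34. Some members that rose are counted in other lists too, SLC7A11 in that of NRF2 and SLC7A5 in that of AHR. GDF15, a secreted stress cytokine, rose from 1.25 to 4.61 CPM (log2 1.88, SE 0.17, adjusted p = 2.2e-10). TRIB3, a pseudokinase that feeds back on ATF4, rose from 5.08, 4.4 and 4.93 CPM to 11.3, 10.1 and 13.8 CPM (log2 1.28, adjusted p = 1.54e-10). SLC7A5, the leucine transporter, was at 115, 84.3 and 109 CPM and then at 225, 215 and 273 CPM (log2 1.21, SE 0.12, adjusted p = 0.000158), with no overlap between groups. Smaller rises were found for ATF3 (log2 0.79, adjusted p = 7.59e-07), a stress-induced repressor, for DDIT3 (0.56, adjusted p = 2.63e-09), which encodes CHOP and has 28% of its exonic length under MARS on the opposite strand, and for ASNS, asparagine synthetase (0.53, adjusted p = 1.77e-05). ATF4 itself rose by 0.31 (adjusted p = 8.9e-05), and 8 of 20 aminoacyl-tRNA synthetase genes rose with none falling. Among 22 chaperones of the endoplasmic reticulum 1 rose, DNAJB9, and 1 fell. The latter, HSPA5, went from a mean of 646 to 575 CPM, and its call (log2 -0.17, adjusted p = 0.0489) was lost when DMSO replicate 2 or 3, any treated library or the first 40 mg/L library was left out, with adjusted p from 0.051 to 0.335.

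**Figure D2:**
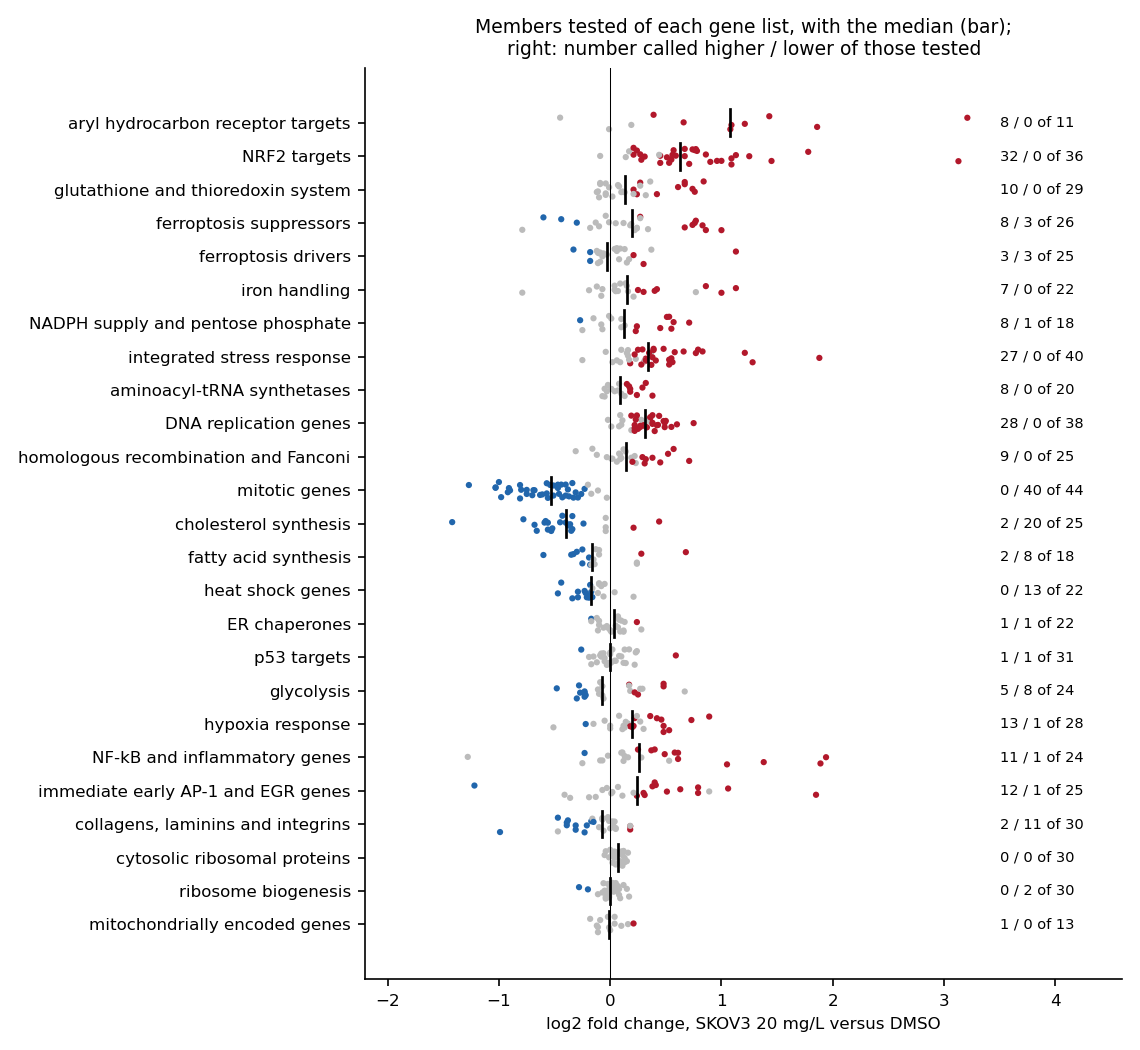
Log2 fold change of 20 mg/L over DMSO for each tested member of 25 gene lists (1 point per gene, red called higher, blue called lower, grey not called), with the list median as a black bar. Numbers on the right count members called higher and lower of those tested; most AHR and NRF2 list members lie to the right and mitotic and cholesterol synthesis genes to the left.

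The cell cycle split in opposite directions. Genes of mitosis fell, 40 of 44 tested with none rising and a median log2 fold change of -0.53, where 4.95% of all genes fell. KIF20A, a kinesin of the late spindle (chr5:138178719-138187715), was at 190, 190 and 198 CPM with DMSO and 84.8, 83.4 and 71.3 CPM at 20 mg/L. That is 2.41-fold lower, with a wide gap between the groups (log2 -1.27, SE 0.06, adjusted p = 1.84e-17). CCNB1, cyclin B1, which drives entry into mitosis, fell from 186, 192 and 193 CPM to 96.2, 97.4 and 91.9 CPM, that is, it fell by 1.00 on the log2 scale (SE 0.05, adjusted p = 7.09e-16). CDC20, the activator of the anaphase-promoting complex, fell in the same way, from 46.8, 47.9 and 48 CPM to 23.7, 24.6 and 21.3 CPM (log2 -1.03, adjusted p = 7.86e-14). PIF1, a DNA helicase, fell by 1.03 (adjusted p = 2.58e-10), PLK1, the polo-like mitotic kinase, by 0.98 (adjusted p = 3.26e-14), HMMR, a spindle assembly factor, by 0.92 (adjusted p = 2.86e-13) and CCNB2, cyclin B2, by 0.81 (adjusted p = 2.18e-12), all on the log2 scale. Of 15 tubulin genes 5 fell and none rose. In bulk RNA, fewer cells in mitosis and less of these transcripts in each cell cannot be told apart.

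DNA replication genes went the other way, 28 of 38 higher and none lower, with a median log2 fold change of 0.31. DTL, which directs the destruction of CDT1 in S phase, was at 8.27, 8.94 and 8.65 CPM and rose to 15.3, 13.8 and 14.4 CPM (log2 0.75, SE 0.09, adjusted p = 6.35e-08). RRM2, a ribonucleotide reductase subunit, rose from a mean of 70.9 to 108 CPM (log2 0.60, adjusted p = 1.19e-08), CDT1, the licensing factor, from 8.87 to 13 CPM (0.55, adjusted p = 6.49e-05), PCNA, the sliding clamp, from 39 to 54.6 CPM (0.49, adjusted p = 5.83e-05) and MCM2, a helicase subunit, from 69.7 to 97.6 CPM (0.48, adjusted p = 8.16e-08). Some factors that start S phase were higher too, among them E2F2 (log2 0.89, adjusted p = 8.46e-06), E2F1 (0.60, adjusted p = 4.26e-06) and CCNE1, cyclin E1 (0.52, adjusted p = 0.000124). Their list of G1 cyclins, CDK inhibitors and related factors had 6 of 18 higher and 1 lower. The other 11 were not called, E2F3 (log2 -0.07) among them. Of 25 homologous recombination and Fanconi genes 9 rose and none fell, EXO1, a DNA exonuclease, most (log2 0.71, adjusted p = 4.37e-07). The p53 targets, whose regulator SKOV3 is known not to express, had a median of 0.00 over 31 genes and 1 call in each direction. GADD45A, a growth arrest and DNA damage gene, rose from 33.2, 35.4 and 32.5 CPM to 50.8, 48.5 and 52.4 CPM (log2 0.59, adjusted p = 1.71e-09), whereas CDKN1A, which encodes the CDK inhibitor p21, overlapped between groups at 3.8, 3.57 and 4.09 CPM against 4.79, 3.7 and 5.11 CPM (log2 0.24, adjusted p = 0.302). The lower call was POLH, a translesion polymerase (log2 -0.26, adjusted p = 0.0204), and it was lost without DMSO replicate 2 (0.0666) or treated replicate 3 (0.139).

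Promoter sequence was examined for 5 short motifs in the 250 bases before the annotated start, taken from RefSeq (GRCh38.p14), on both strands. The search covered 27305 promoters, and a match is a string of letters, not a bound site. The cell cycle homology element (TTTGAA or TTCGAA), through which late cell cycle genes are known to be repressed and timed, was in 18 of 34 promoters found for the mitotic genes that fell (52.9%), in 14.6% of all promoters and in 1 of 25 promoters of the replication genes that rose (4%). The 120 bases before the start are shown for 4 mitotic genes that fell, with the element in capitals:
PLK1 (chr16:23678769-23678888, plus strand): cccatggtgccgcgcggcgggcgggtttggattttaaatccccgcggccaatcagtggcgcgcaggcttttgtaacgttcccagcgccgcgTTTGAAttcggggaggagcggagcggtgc
CCNB2 (chr15:59105026-59105145, plus strand): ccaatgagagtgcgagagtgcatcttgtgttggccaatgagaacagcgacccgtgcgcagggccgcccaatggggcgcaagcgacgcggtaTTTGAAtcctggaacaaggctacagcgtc
CDC20 (chr1:43358861-43358980, plus strand): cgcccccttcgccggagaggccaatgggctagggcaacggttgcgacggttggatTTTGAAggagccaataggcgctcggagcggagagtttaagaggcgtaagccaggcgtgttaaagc
PIF1 (chr15:64825648-64825767, minus strand): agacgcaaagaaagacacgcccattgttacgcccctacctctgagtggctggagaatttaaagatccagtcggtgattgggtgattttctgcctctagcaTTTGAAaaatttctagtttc
In PLK1 and CCNB2 the element began 29 bases before the start and in PIF1 20 bases before it. In CDC20 the shown copy began 65 bases before the start, and a further copy lay outside the window.

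The core of the dioxin response element, GCGTG, to which AHR is known to bind with its partner ARNT, was in 5 of 6 promoters found for the AHR targets that rose (83.3%) and in 31.9% of all promoters. It was also in 11 of 13 promoters of the cholesterol synthesis genes that fell (84.6%) and in 15 of 25 of the replication genes that rose (60%). The antioxidant response element core (TGACNNNGC), the NRF2 motif, was in 4 of 23 promoters of the NRF2 targets that rose (17.4%) against 11% of all promoters. It was as frequent in promoters of the integrated stress response genes that rose (21.7%), the replication genes that rose (20%) and the mitotic genes that fell (17.6%). The C/EBP-ATF composite element (TGATGNAA), the ATF4 motif, was in 3 of 23 of the integrated stress response genes that rose (13%) against 3.19%. The last motif searched, the E-box CACGTG, was in 6 of the 34 mitotic promoters (17.6%) and in 6.49% of all promoters. It was also in 1 of 6 promoters of the AHR targets that rose (16.7%) and 3 of 25 of the replication genes that rose (12%). Of the integrated stress response genes that rose 2 of 23 held it (8.7%), of the cholesterol synthesis genes that fell 1 of 13 (7.69%) and of the NRF2 targets that rose 0 of 23. One stretch of 120 bases is shown for each response that carries its motif, with 2 for NRF2, the motif again in capitals and on the opposite strand in GCLM:
CYP1A1 (chr15:74725529-74725648, minus strand): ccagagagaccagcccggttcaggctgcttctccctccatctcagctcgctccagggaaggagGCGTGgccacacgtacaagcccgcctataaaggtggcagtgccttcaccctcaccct
GCLM (chr1:93909431-93909550, minus strand): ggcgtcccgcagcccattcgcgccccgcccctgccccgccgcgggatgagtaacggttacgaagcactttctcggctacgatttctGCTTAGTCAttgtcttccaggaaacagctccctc
TXNRD1 (chr12:104215619-104215738, plus strand): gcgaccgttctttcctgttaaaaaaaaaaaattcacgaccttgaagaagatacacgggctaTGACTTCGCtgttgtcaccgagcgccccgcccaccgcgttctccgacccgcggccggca
ASNS (chr7:97872409-97872528, minus strand): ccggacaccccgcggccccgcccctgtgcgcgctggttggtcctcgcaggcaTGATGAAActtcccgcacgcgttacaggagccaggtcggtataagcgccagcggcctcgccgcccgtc
The stretch of TXNRD1 runs from base -160 to base -41 and the others from base -120 to base -1 before the start. The motif begins at base -57 in CYP1A1, -34 in GCLM, -99 in TXNRD1 and -68 in ASNS.

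Genes of cholesterol synthesis and uptake fell together. Of 25 tested 20 fell and 2 rose, with a median log2 fold change of -0.40. HMGCS1, an early enzyme of the pathway (chr5:43289395-43313512), was at 229, 256 and 252 CPM with DMSO and 145, 149 and 134 CPM at 20 mg/L (log2 -0.78, SE 0.06, adjusted p = 2.47e-12), with 15% of its exonic length under an antisense gene. Squalene synthase, FDFT1, fell by 0.68 on the log2 scale (adjusted p = 4.15e-10). EBP, a sterol isomerase, rose by 0.44 (adjusted p = 3.09e-05), and SC5D, a late desaturase, had a log2 fold change of 0.21 (adjusted p = 0.0131) that was not called without DMSO replicate 1 or 2 or treated replicate 2 (0.0739 to 0.12). The genes of 2 cholesterol exporters rose, ABCG1 from 0.466, 0.39 and 0.288 CPM to 1.6, 1.15 and 1.7 CPM (log2 1.95, SE 0.32, adjusted p = 4.33e-05), and ABCA1 from a mean of 23.7 to 31 CPM (log2 0.39, adjusted p = 8.9e-05). Among 22 ABC transporters tested these and ABCC3, an exporter of conjugated drugs (log2 0.78, adjusted p = 2.84e-12), were the 3 called. In fatty acid synthesis 8 of 18 genes fell and 2 rose, and SCD, the desaturase that makes oleate, fell from 121, 120 and 128 CPM to 82.7, 81.6 and 79.7 CPM (log2 -0.60, adjusted p = 1.09e-09).

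The heat shock list holds mainly cytosolic chaperones controlled by HSF1, with the mitochondrial chaperones HSPD1 and HSPE1 and the factors HSF1 and HSF2 themselves, and its calls were small, 13 of 22 lower and none higher with a median log2 fold change of -0.17. Over all genes tested 4.95% fell, and 16.6% of those averaging 100 CPM or more. HSP90AA1, the inducible HSP90, went from 5036, 5132 and 4763 CPM to 3801, 3773 and 4230 CPM (log2 -0.34, adjusted p = 4.55e-05). HSPH1, a large relative of HSP70, fell by 0.47 (adjusted p = 1.77e-08) and HSPB1, a small heat shock protein, by 0.44 (adjusted p = 3.59e-06). Proteasome genes, 2 of 32 lower and none higher, moved little.

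Immediate early genes, which serum and growth factors switch on within minutes, were partly raised, 12 of 25 higher, 1 lower and 12 not called. The lower one was FOSB, a relative of FOS that averaged under 1 CPM in both groups (log2 -1.22). EGR1, a zinc finger factor downstream of ERK, rose from 12.4, 9.75 and 10.5 CPM to 36, 47.5 and 34.8 CPM (log2 1.85, SE 0.17, adjusted p = 0.000173). FOS, a subunit of AP-1, went from 6.71, 4.62 and 4.28 CPM to 9.82, 12.7 and 10.2 CPM (log2 1.06, adjusted p = 9.84e-07). Both were separate between groups in all libraries. MYC, the growth-promoting transcription factor, was at 20, 20.2 and 19.8 CPM and rose to 31.7, 31.5 and 30.6 CPM (log2 0.64, SE 0.06, adjusted p = 1.66e-09), while ribosome biogenesis genes, which MYC is known to activate, showed 0 of 30 higher and 2 lower by edgeR and by DESeq2, with 3 higher at an unadjusted p under 0.05, and their median was 0.00. Of 30 cytosolic ribosomal protein genes 0 were called in either direction by edgeR or DESeq2, and 4 were higher and 0 lower at an unadjusted p under 0.05.

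Of 24 NF-kB and inflammatory genes 11 rose and 1 fell, with a median log2 fold change of 0.26. CXCL8, the neutrophil chemokine interleukin 8, was at 26.6, 24.1 and 21.6 CPM and then at 49.8, 47.3 and 53 CPM (log2 1.05, SE 0.07, adjusted p = 4.86e-13). IL1B had 0.583, 0.557 and 0.481 CPM with DMSO and 1.79, 1.99 and 2.5 CPM at 20 mg/L (log2 1.94, adjusted p = 5.85e-07), IL1A rose from a mean of 0.753 to 2.78 CPM (log2 1.89, adjusted p = 8.16e-08) and IL6 from 1.03 to 2.72 CPM (log2 1.38, adjusted p = 1.5e-06), all 3 encoding cytokines of acute inflammation. SOD2, the mitochondrial superoxide dismutase and an NF-kB target, rose by 0.61 (adjusted p = 5.04e-10) and IER3, an early response gene, by 0.79 (adjusted p = 1.1e-11), with 26.5% of its length under a gene on the opposite strand. Interferon response genes gave 3 higher and 4 lower of 25, where 5.16% of all genes rose and 4.95% fell. Secreted factors of vessel growth rose in 6 of 13 cases and fell in none. ANGPT2, a ligand of the TIE2 receptor, was at 5.08, 5.04 and 5.31 CPM and rose to 13, 14.8 and 19.5 CPM (log2 1.61, SE 0.16, adjusted p = 2.93e-05). VEGFA, the main angiogenic growth factor, went from 641, 653 and 598 CPM to 956, 892 and 881 CPM (log2 0.53, adjusted p = 1.02e-08), and ANGPTL4, a lipase inhibitor induced by hypoxia, from a mean of 5.23 to 9.62 CPM (log2 0.89, adjusted p = 1.57e-07).

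Of 28 hypoxia response genes 13 rose and 1 fell, and of 24 glycolysis genes 5 rose (SLC2A1, HK2, PFKP, PFKFB3 and SLC16A1) and 8 fell. Over all genes tested 5.16% rose and 4.95% fell. SLC2A1 and HK2, which rose, and LDHA, which fell, are counted in both lists. VEGFA and ANGPTL4 are counted among the hypoxia genes and the vessel growth factors, so the hypoxia count is not a separate result. The glucose transporter SLC2A1 was at 210, 177 and 195 CPM and rose to 272, 254 and 286 CPM (log2 0.48, adjusted p = 1.59e-07), and hexokinase HK2 went from 36, 34.2 and 33.9 CPM to 47.4, 45.2 and 52.6 CPM (log2 0.48, adjusted p = 4.02e-06). PGK1, phosphoglycerate kinase, fell from a mean of 250 to 203 CPM (log2 -0.30, adjusted p = 0.000133). Respiratory chain genes of the nucleus gave 3 lower and none higher of 31, beside 4.95% lower over all genes. Among 13 genes of the mitochondrial genome MT-CO2, a cytochrome oxidase subunit, was the 1 called (log2 0.21, adjusted p = 0.0236), with overlapping libraries and no call without DMSO replicate 1 or 3 or treated replicate 2 or 3 (0.106 to 0.183).

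Of 30 collagens, laminins and integrins 11 fell and 2 rose, where 4.95% of all genes fell and 5.16% rose. COL3A1, a fibrillar collagen, was at 17.2, 18.5 and 18 CPM and fell to 9.59, 9.8 and 7.61 CPM (log2 -0.99, SE 0.11, adjusted p = 1.46e-08), and COL5A2, another fibrillar collagen, went from a mean of 202 to 146 CPM (log2 -0.47, adjusted p = 3.52e-08). MMP10, the protease stromelysin 2, fell from 11.6, 13.1 and 13.3 CPM to 5.83, 5.89 and 4.43 CPM (log2 -1.23, adjusted p = 7.44e-10) and MMP13, a collagenase, by 0.53 (adjusted p = 3.09e-05), while TIMP3, an inhibitor of such proteases, rose by 0.67 (adjusted p = 9.4e-05). Of the 19 proteases and plasminogen genes 4 rose and 4 fell. FILIP1L, a filamin-interacting protein known to restrain cell movement, had the largest fall of the well expressed genes, from 25.7, 21.8 and 25 CPM to 8.91, 11.1 and 7.58 CPM (log2 -1.39, SE 0.10, adjusted p = 5.79e-12). The intermediate filament gene KRT5 fell by 1.00 on the log2 scale (adjusted p = 3.75e-09). KRT19 (-0.72, adjusted p = 3.8e-10) and KRT8 (-0.37, adjusted p = 8.6e-06), which like KRT5 encode keratins of epithelial cells, fell, as did VIM, the vimentin gene of mesenchymal cells (-0.52, adjusted p = 1.02e-08), 24.4% of whose exonic length is overlapped by VIM-AS1. In the list of epithelial genes 5 of 19 fell and 3 rose, CLDN4 (0.72), CLDN1 (0.52) and ELF3 (0.34), and in that of mesenchymal genes 5 of 17 fell and 1 rose, FN1 (0.18). The call of CLDN4 was lost without DMSO replicate 2 or 3 or treated replicate 3 (adjusted p from 0.109 to 0.187, against 0.023). That of FN1 (adjusted p = 0.0451) was lost with median-ratio size factors (0.0594) and without DMSO replicate 2 or 3 or treated replicate 1 or 3 (0.0825 to 0.316). TGF-beta and YAP output gave 2 higher and 1 lower of 20, beside 5.16% higher and 4.95% lower over all genes. The 2 remaining genes with the lowest fold changes were WDR72, a WD-repeat protein (5.47 to 2.34 CPM, log2 -1.23, adjusted p = 1.5e-06), and RAET1E, a ligand of the natural killer receptor NKG2D (5.19 to 2.61 CPM, log2 -0.99, adjusted p = 2.13e-05). Fibroblast and endothelial markers, which include these collagens, gave 4 lower and 1 higher of 10 tested, and their summed level was 769 to 811 CPM with DMSO and 637 to 679 CPM at 20 mg/L. The endothelial markers CDH5, VWF and TEK did not exceed 0.0964 CPM in any of the 6 libraries.

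**Figure D3:**
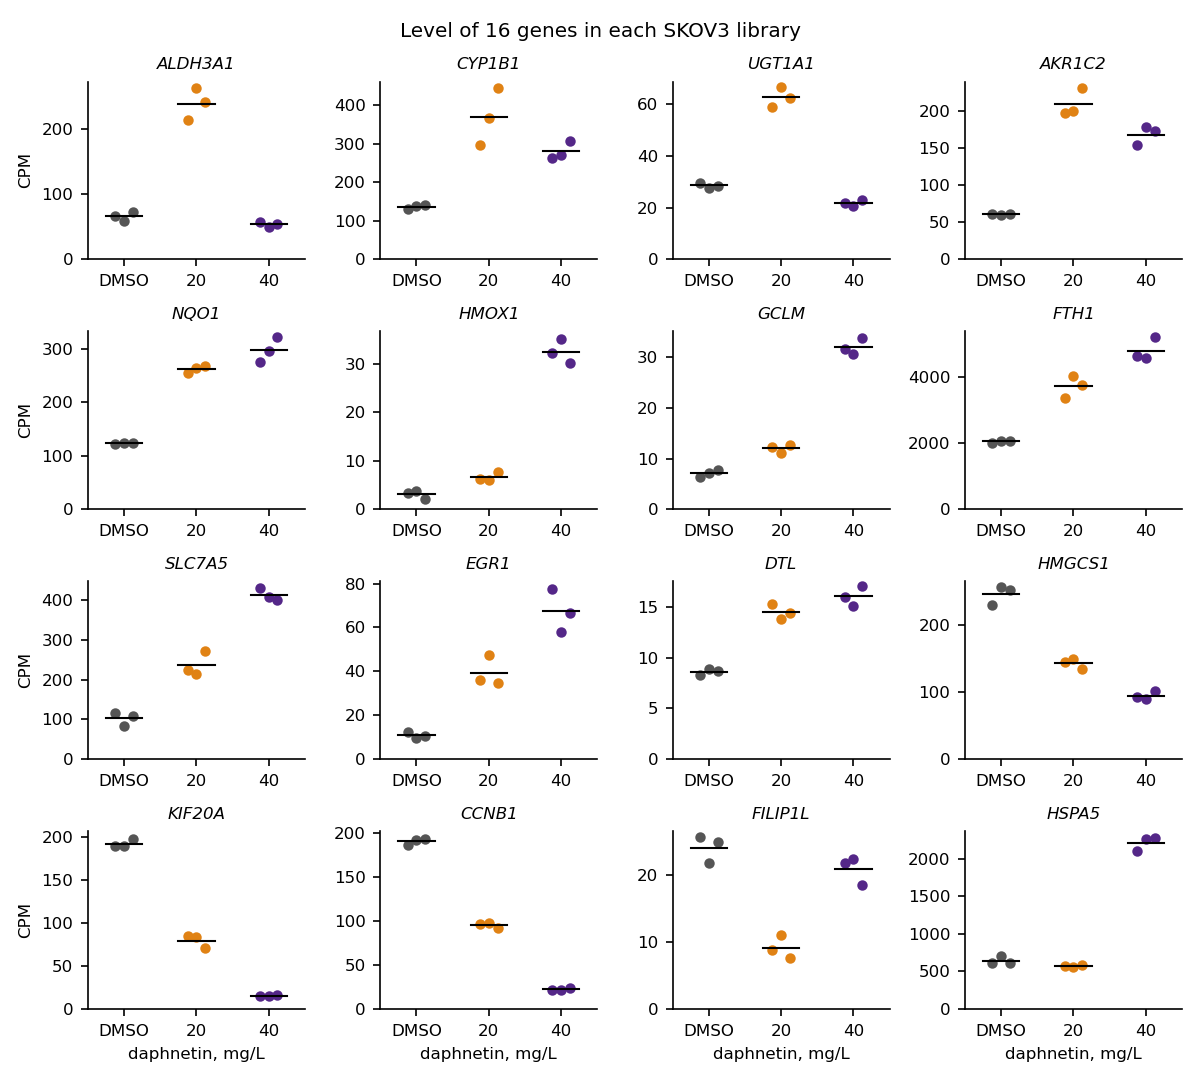
Level (CPM, linear axes from 0) of 16 genes in each SKOV3 library with DMSO, 20 mg/L and 40 mg/L daphnetin, with 1 point per library and the mean of 3 as a bar. The groups with DMSO and 20 mg/L do not overlap in any panel; ALDH3A1, UGT1A1 and FILIP1L return towards the DMSO level at 40 mg/L, while HMOX1 and HSPA5 are highest there.

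The direct comparison of 40 with 20 mg/L, which leaves the DMSO libraries out, asked how far the lower dose differs from the higher one. It called 10394 genes (47.4%), 5081 higher (23.2%) and 5313 lower (24.2%) at 40 mg/L. Because it shares the 20 mg/L libraries with the comparison above, values are given side by side. All 44 mitotic genes were lower at 40 than at 20 mg/L, and KIF20A averaged 193 CPM with DMSO, 79.8 at 20 mg/L and 15.5 at 40 mg/L (40 against 20, log2 -2.37, adjusted p = 1.58e-24). PIF1 went from 21.9 to 10.8 and 0.835 CPM in the same order (-3.68, adjusted p = 7.02e-21). Cholesterol synthesis genes were lower at 40 mg/L in 19 of 25 cases. NRF2 targets were lower in 5 of 36 cases, AKR1C2 among them at 61.3, 210 and 168 CPM (40 against 20, log2 -0.32, adjusted p = 3.06e-05). They were higher in 25, among them OSGIN1 at 1.23, 2.65 and 20.9 CPM (log2 2.99, adjusted p = 2.76e-19) and HMOX1 at 3.07, 6.72 and 32.5 CPM (2.28, adjusted p = 3.27e-18). NQO1 by contrast was at 123, 262 and 297 CPM, so that 20 mg/L already gave most of the level seen at 40 mg/L (40 against 20, log2 0.18, adjusted p = 0.00508).

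Several AHR targets were highest at the lower dose, but the list did not move as a whole. Of its 11 members tested 4 were higher and 4 lower at 40 than at 20 mg/L, with a median log2 of 0.02. ALDH3A1 averaged 66, 240 and 54.5 CPM with DMSO, 20 and 40 mg/L, lower at 40 than at 20 mg/L by 2.14 on the log2 scale (log2 -2.14, adjusted p = 6.35e-19). UGT1A1 showed 28.6, 62.6 and 21.8 CPM (40 against 20, log2 -1.52, adjusted p = 6.69e-20), CYP1A1 0.165, 1.58 and 0.549 CPM (-1.50, adjusted p = 0.000847) and CYP1B1 137, 369 and 280 CPM (-0.40, adjusted p = 0.0479). For CYP1B1 the libraries of both doses overlapped, at 295, 366 and 445 CPM against 263, 271 and 306 CPM. AHRR (log2 0.02, adjusted p = 0.92) was not called between the doses, and TIPARP was higher at 40 mg/L (0.49, adjusted p = 0.000665). ENPP2 at 2.67, 8.04 and 2.91 CPM, SLC37A2 at 2.38, 6.03 and 1.94 CPM and ABCG1 at 0.381, 1.48 and 0.653 CPM followed the same course as ALDH3A1, and FILIP1L at 24.2, 9.18 and 20.9 CPM its mirror image, each with a called difference between the doses. Of the 1132 genes higher at 20 mg/L than with DMSO, 361 were higher still at 40 mg/L, 386 were lower at 40 than at 20 mg/L and 385 were not called. Of the 1085 lower genes, 660 were lower still, 141 were higher and 284 were not called. These genes were chosen on the 20 mg/L libraries that both comparisons share, which favours a return at 40 mg/L, and over all genes 23.2% were higher and 24.2% lower at 40 than at 20 mg/L.

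Other programmes appeared at 40 mg/L. ER chaperones were higher than at 20 mg/L in 21 of 22 cases, with HSPA5 at 646, 575 and 2210 CPM (40 against 20, log2 1.94, adjusted p = 1.12e-23), and ATF3 went from 5.48 to 9.47 and then 63.1 CPM (2.74, adjusted p = 4.64e-23). KIAA1683 was at 1.03, 0.976 and 8.53 CPM (3.11, adjusted p = 2.84e-15) and ANGPT2 at 5.14, 15.8 and 104 CPM (2.73, adjusted p = 3e-09). In the other direction, MEFV, the pyrin gene of innate immunity, was at 10.4, 12.2 and 1.03 CPM (-3.55, adjusted p = 1.36e-20), CYP24A1, which inactivates vitamin D, at 4.67, 8.33 and 0.71 CPM (-3.53, adjusted p = 8.94e-18) and SLC22A2, an organic cation transporter, at 5.66, 6.41 and 0.944 CPM (-2.75, adjusted p = 1.02e-14). Of these genes only ATF3, ANGPT2, CYP24A1 and, with a call that single libraries decided, HSPA5 were called at 20 mg/L against DMSO, CYP24A1 with a log2 fold change of 0.84 (adjusted p = 2.57e-05).

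**Figure D4:**
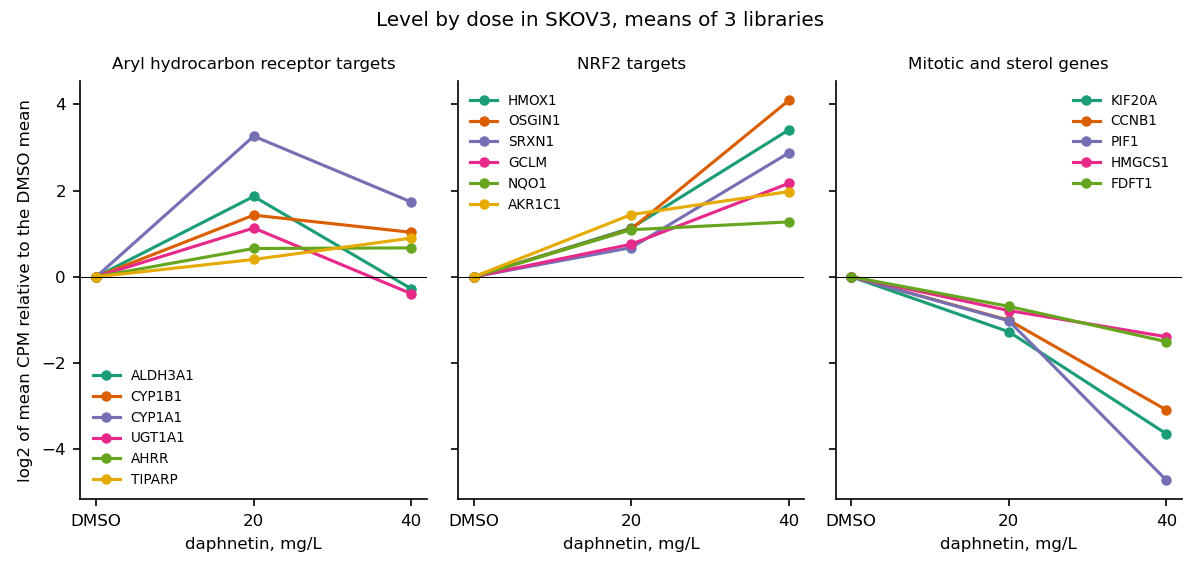
Mean CPM at each dose relative to the DMSO mean (log2 scale, means of 3 SKOV3 libraries) for 6 AHR targets, 6 NRF2 targets and 5 mitotic and cholesterol synthesis genes. AHR targets ALDH3A1, UGT1A1, CYP1A1 and CYP1B1 peak at 20 mg/L, the 6 NRF2 targets shown rise further at 40 mg/L, and the 5 mitotic and sterol genes shown fall further.

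The response to 20 mg/L was then set against that of A2780, with no library in common, by an interaction contrast in a fit of all 18 libraries. The lines' responses differed for 5121 of 23742 genes (21.6%), 2616 with a higher change in SKOV3 (11%) and 2505 with a lower one (10.6%). In the same fit A2780 alone had 8011 genes called (33.7%). NQO1 rose by 1.09 in SKOV3 and by 1.13 in A2780 on the log2 scale, and the difference of -0.04 (SE 0.09) was not called (adjusted p = 0.824). HMOX1 rose much less in SKOV3, 1.13 against 3.91 (difference -2.78, SE 0.24, adjusted p = 9.85e-10), as did OSGIN1, 1.09 against 3.87 (difference -2.77, adjusted p = 1e-08), and GCLM, 0.76 against 1.85 (difference -1.09, adjusted p = 4.24e-08). TRIM16L went the other way, 1.25 against -0.13 (difference 1.38, adjusted p = 9.91e-09). Of the 36 NRF2 targets 13 had a higher and 14 a lower change in SKOV3. The 13 include AKR1C1 and AKR1C2, which averaged under 1 CPM in A2780.

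Single genes moved in opposite directions in the lines. SLC7A5 rose by 1.21 in SKOV3 and fell by 0.82 in A2780 on the log2 scale (difference 2.03, SE 0.15, adjusted p = 1.25e-08). Its partner SLC3A2 rose in both, by 0.83 and 0.98 (difference -0.15, adjusted p = 0.328), and SLC7A11 by 0.77 and 1.31 (difference -0.53). TRIB3 rose by 1.28 in SKOV3 and fell by 0.66 in A2780 (difference 1.95, adjusted p = 1.79e-09). MYC rose by 0.64 and fell by 1.20 (difference 1.85, SE 0.10, adjusted p = 3.47e-17). HK2 rose by 0.48 in SKOV3 and had a log2 fold change of -1.91 in A2780 (difference 2.39, SE 0.14, adjusted p = 2.98e-14), and SLC2A1 gave 0.48 against -1.02 (difference 1.50, adjusted p = 3.82e-09). Ribosome biogenesis genes, near 0 in SKOV3 with a median of 0.00, had a median of -0.57 in A2780, and 27 of 30 had a higher change in SKOV3. MT-TF, a mitochondrial transfer RNA, gave 0.54 against -1.31 (difference 1.85, adjusted p = 3.17e-07). On the side of lower changes stood MIR22HG, the host gene of a microRNA (-0.34 against 1.98, difference -2.32, adjusted p = 4e-16), DNAJB4, an HSP40 co-chaperone (-0.14, not called in SKOV3, against 1.91, difference -2.04, adjusted p = 1.48e-16), and MYH15, a myosin heavy chain (-0.59 against 1.28, difference -1.86, adjusted p = 2.57e-12).

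Cholesterol synthesis, with a median of -0.40 in SKOV3, had a median of 0.02 in A2780, and 15 of 25 genes had a lower change in SKOV3 while 1 had a higher one. HMGCS1 fell by 0.78 in SKOV3 and had a log2 fold change of -0.03 in A2780 (difference -0.75, adjusted p = 8.83e-08). In p53 targets the medians were 0.00 and 0.46, and 19 of 31 changes were lower in SKOV3. CDKN1A gave 0.24 against 1.42 (difference -1.17, adjusted p = 7.33e-06). Mitotic genes fell in both lines, with medians of -0.53 and -0.62, and of 44 differences 13 were higher and 3 lower in SKOV3, KIF20A giving -1.27 against -1.74 (difference 0.48, adjusted p = 0.0003). ALDH3A1, AKR1C1, AKR1C2, ANGPT2, SLC47A2 and the UGT1A genes averaged under 1 CPM in A2780, so no comparison between the lines is given for them. Over the 21736 genes tested in both fits, A2780 had 18.3% called higher and 17.7% called lower. Of the genes called higher in SKOV3 at this dose, 367 were also called higher in A2780, which is 32.4% of the 1132 in SKOV3 and 9.2% of the 3987 in A2780. For genes called lower the number was 416, 38.3% of the 1085 in SKOV3 and 10.8% of the 3853 in A2780. Called in opposite directions were 176 genes higher in SKOV3 (15.5% of the 1132) and 136 lower in SKOV3 (12.5% of the 1085).

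**Figure D5:**
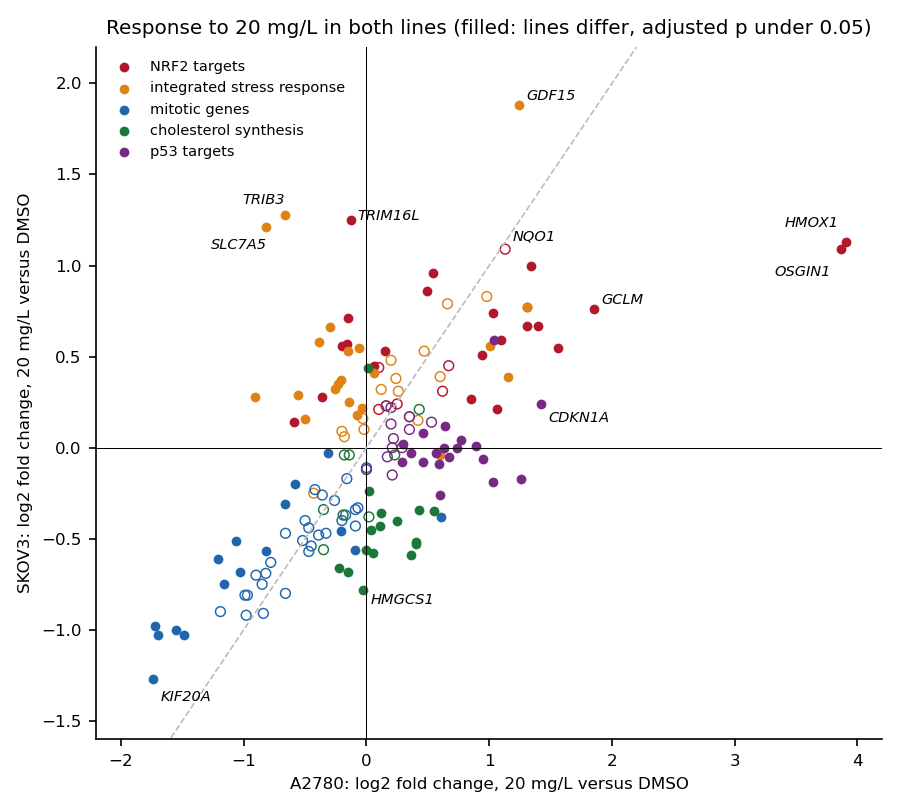
Log2 fold change of 20 mg/L over DMSO in A2780 (horizontal) and SKOV3 (vertical) for members of 5 gene lists that averaged at least 1 CPM in A2780, with filled points where the difference between the lines was called and open points where it was not; the dashed line marks equal change. HMOX1 and OSGIN1 lie far right of it, TRIB3 and SLC7A5 above it with opposite signs, and NQO1 close to it.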

How the data were processed

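Per the file headers, the values the authors deposited are raw whole-number counts by gene and library, beside each gene's position and exonic length. Per the labels' protocols, the mRNA kit was stranded. The submitters' processing notes list Trimmomatic 0.36 and GRCh38. Aligner, counter, annotation release and strandedness of counting are not given here, so reads of overlapping genes cannot be told apart. Between 74.3% and 77% of small counts in the SKOV3 libraries were even, so both mates of a pair appear to have been counted. Identifiers turned into dates, 28 in all, held 0.162% to 0.194% of the counts in those libraries and name no gene. Depth covers counting error alone, since reads carry no molecular identifiers and may repeat a molecule.

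Genes were kept by edgeR's filterByExpr and scaled by TMM. Differences were tested two-sided with edgeR 4.0.16 (quasi-likelihood F test, robust, R 4.3.3) in 1 fit of the 9 SKOV3 libraries (6 residual degrees of freedom) and, for the line difference, in 1 fit of all 18 (12 residual degrees of freedom), with p-values adjusted by Benjamini-Hochberg across the genes tested. Levels are TMM-scaled CPM within SKOV3, or across all 18 libraries for values of both lines. The common biological coefficient of variation in SKOV3 was 5.83%. In a test on simulated data for this comparison (21543 genes), 98% of 4-fold, 68% of 2-fold, 61.2% of 1.5-fold and 54% of 1.25-fold changes were called. Only 49 or 50 genes were changed at each fold, whereas 2217 were called in the data, so these rates may not carry over. DESeq2 1.42.0, other scalings, no filter, halved counts, fewer libraries and a replicate block served as alternatives.

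The members, lists and tests were chosen with earlier results of these data known. There were 48 gene lists of 1087 entries from general knowledge, described by counts and medians without a set test. NQO1, GPX4, SLC7A11, AIFM2, TFRC and HMOX1 were named, with the 10 highest and 10 lowest fold changes among called genes with a symbol, no overlap between groups and a mean of at least 5 CPM in 1 of them. Also named were up to 4 called members per list and direction averaging at least 1 CPM, and the 4 highest and 4 lowest genes of the dose and line comparisons. AHR, AHRR, TIPARP, UGT1A1, BEST1, ERBB2, TXNRD1, EPHX1, ASNS, ATF4, DDIT3, SOD2, PCNA, MCM2, PLK1, CCNB2, HMMR, CDKN1A, E2F3, AKR1B1, AKR1C3, FOSB, and genes named in the closing section without a place in these rules, were chosen after their values were seen. RefSeq promoters were matched by symbol. Some single genes of the lists are not reported here.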

Additional observations from a re-analysis of the deposited data

Results flagged for a closer look

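The results in this part stand out because the response to 20 mg/L differed between SKOV3 and A2780 by the interaction contrast (edgeR, adjusted p under 0.05), where both lines averaged at least 1 CPM in some group. Values are the SKOV3 log2 fold change minus that of A2780.

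A higher change in SKOV3 was found for SHISA2 (2.58), HK2 (2.39), ABCG1 (2.04), SLC7A5 (2.03), TRIB3 (1.95), MYC (1.85), MT-TF (1.85), SLC2A1 (1.50), TRIM16L (1.38), ANGPTL4 (1.08) and CLDN4 (1.03). Smaller differences in that direction were those of SOD2 (0.90), E2F2 (0.86), CYP1B1 (0.78), TKT (0.73), VEGFA (0.68), CCNE1 (0.67), AHRR (0.64), AKR1B1 (0.64), TIPARP (0.64), GDF15 (0.64), IER3 (0.56), ALDH3A2 (0.51), MCM2 (0.49), PGK1 (0.44), EBP (0.44), DTL (0.43), EPHX1 (0.42), FTH1 (0.38) and BEST1 (0.34). Mitotic genes fell in both lines and by less in SKOV3, namely PLK1 (0.74), PIF1 (0.68), CCNB1 (0.55), KIF20A (0.48) and CDC20 (0.46).

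A lower change in SKOV3 was found for HMOX1 (-2.78), OSGIN1 (-2.77), MIR22HG (-2.32), DNAJB4 (-2.04), MYH15 (-1.86), FILIP1L (-1.63), MMP10 (-1.38), KIAA1683 (-1.29), CDKN1A (-1.17) and GCLM (-1.09). NRF2-related genes among the smaller differences were TXNRD1 (-0.73), SRXN1 (-0.64), MAFF (-0.60), SLC7A11 (-0.53), KEAP1 (-0.42), FTL (-0.34) and GCLC (-0.29). Lipid genes were HMGCS1 (-0.75), SCD (-0.74) and FDFT1 (-0.53). The others were POLH (-0.85), COL5A2 (-0.62), COL3A1 (-0.52), ARL6IP1 (-0.48), GADD45A (-0.45), DDIT3 (-0.45), ERBB2 (-0.45), HSPA5 (-0.42) and VIM (-0.27).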

How the results depend on the processing

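The number of genes called at 20 mg/L against DMSO was 2228 with median-ratio size factors, 2258 with DESeq2, 2204 without the low-count filter, 2318 with counts halved and 2597 with only the 6 libraries compared, against 2217. Leaving out 1 library in turn gave 1443 to 2652 in all, 710 to 1357 higher and 733 to 1295 lower, and 118 to 164 with a change of 2-fold or more. Without DMSO replicate 3 the count was 1443 in all and 710 higher, which is lower by over 1.5 times, and the cause was not tested. DESeq2 called 101 genes with a change of 2-fold or more, against 150. Same-numbered libraries with DMSO and 20 mg/L deviated together little (correlations from 0.009 to 0.051, against -0.053 to 0.023 for other numbers). Correlations this small over all genes cannot decide whether the numbers pair libraries. A fit with the replicate number as a block called 2537. The count for 40 against 20 mg/L ran from 9259 to 10393 and that for the line difference from 4485 to 4901 when 1 library was left out. Of 1965 values of single named genes under these alternatives, 1922 kept their direction and side of the threshold and 39 lost the call. With 1 library left out, the sign turned for 2 genes that were not called, TFRC (-0.02 to 0.08, negative without DMSO replicate 2) and KIAA1683 (-0.31 to 0.16, positive at 0.16 without DMSO replicate 2 and at 0.03 and 0.10 without treated replicates 1 and 3). List medians moved by more than the median standard error of their members in 9 of 720 cases. Genes under 1 CPM had few reads, and 1.42% of them were called, against 24.9% at 100 CPM or more.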

Other observations

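Genes outside the lists also changed at 20 mg/L in SKOV3. They were chosen after their values were seen. IL1R1, the signalling receptor of interleukin 1, rose from 28.6, 27.4 and 30.9 CPM to 47.3, 48.5 and 53.5 CPM (log2 0.78, adjusted p = 2.13e-11, edgeR), IL1R2, the decoy receptor, by 1.03 (adjusted p = 4.37e-06), and INHBA, which encodes a subunit of activin, by 0.88 (adjusted p = 1.55e-12). RARRES3, a retinoid-inducible phospholipase, rose from a mean of 25.4 to 51.6 CPM (log2 1.02, adjusted p = 6.01e-12), and THBD, the anticoagulant receptor thrombomodulin, from 3.34 to 7.67 CPM (log2 1.20, adjusted p = 4.98e-08). Both were lower again at 40 mg/L, at 31 and 3.55 CPM. ALDH3A2, a fatty aldehyde dehydrogenase of the ALDH3A1 family, rose by 0.70 (adjusted p = 1.12e-11).

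Among low transcripts, SHISA2, which encodes a membrane protein of the endoplasmic reticulum, went from 0.326, 0.39 and 0.384 CPM to 2.35, 1.87 and 2.9 CPM (log2 2.68, adjusted p = 3.72e-09, edgeR). The transcription factor gene SOX9 fell from 1.77, 1.17 and 1.35 CPM to 0.423, 0.24 and 0.568 CPM (log2 -1.82, adjusted p = 5.29e-05). DKK1, a secreted inhibitor of Wnt signalling, was lower at 20 mg/L than with DMSO and higher at 40 mg/L, with means of 4.78, 2.07 and 8.87 CPM (20 against DMSO, log2 -1.19, adjusted p = 2.02e-07). Further mitotic genes fell with the list, UBE2S and CKS2 by 0.75 each and PRR11 by 0.84 on the log2 scale, and so did ARL6IP1, a shaping protein of the endoplasmic reticulum (381 to 218 CPM), and LGALS1, which encodes galectin 1 (35.4 to 21.7 CPM).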
